A study of Mus musculus with 8 samples.

Results

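The actin cytoskeleton core genes are 10 genes for actin, for proteins that bind or bundle it, for 1 myosin light chain and for vimentin: Actb, Actg1, Pfn1, Cfl1, Tmsb4x, Tmsb10, Coro1a, Lcp1, Vim and Myl6. They were taken by symbol from an annotation of 55536 genes, and all 10 were among the 11189 genes with enough reads to be tested. Their mRNA was measured by RNA sequencing in OT-1 CD8 T cells, which are mouse cytotoxic T cells whose single transgenic receptor recognises SIINFEKL, a peptide of ovalbumin. The cells came from lymph nodes of OT-1 mice on a C57BL/6, Rag1-deficient background. Per the methods, donors were 5 to 12 weeks of age and their sex was randomised, and the library labels give neither sex nor age. Cells of both groups were stimulated for 2 days with SIINFEKL at 100 nM and, after the peptide was washed away, grown for 2 days in 20 ng/ml of recombinant human IL-2. During the IL-2 phase the GC7 group (4 libraries) received 10 µM GC7, an inhibitor of deoxyhypusine synthase, the enzyme that starts the hypusine modification of the translation factor eIF5a. The Mock group (4 libraries) received the acetic acid vehicle without GC7. RNA was taken from equal numbers of cells per library, and each library reports all cells of a culture together.

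Actin monomers polymerise into filaments that form the cell cortex, drive migration and organise the contact between a cytotoxic T cell and its target. Profilin, thymosins and cofilin set the pool of monomers and the rate of filament turnover, coronin and plastin act on existing filaments, and non-muscle myosin pulls on them. Vimentin forms intermediate filaments, a separate network that is abundant in activated lymphocytes. Transcription of several actin genes is under the control of serum response factor (SRF) and its co-activator MRTF, which binds actin monomers.

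Counts per library were 20045041 to 25284730 in Mock and 17528776 to 23449164 in GC7, and the difference was within the spread of the libraries (2-sided exact permutation test, p = 0.429, smallest p possible 0.0286). All 8 markers of CD8 T cells had reads in these libraries, with summed levels of 8050 to 9540 CPM (counts scaled by TMM factors to libraries of equal size) in Mock and 5350 to 7150 CPM in GC7. The sum was mostly Gzmb and Thy1. On the log2 scale 5 of the 8 markers were lower, Prf1 (-1.46), Gzmb (-0.61), Thy1 (-0.53), Cd3g (-0.37) and Cd3e (-0.23). Cd8a was higher by 0.48 (adjusted p = 3.4e-05, edgeR), and Cd8b1 (-0.18) and Cd3d (-0.27) did not pass. Of 6 B cell markers 4 had any count, Ms4a1 and Pax5 were at 0 in all libraries, and the summed level was 460 to 574 CPM in Mock and 269 to 294 CPM in GC7, nearly all of it Ighm. The 6 myeloid markers summed to 8.44 to 11.1 CPM in Mock and 5.73 to 9.77 CPM in GC7, the 6 dendritic cell markers to 4.85 to 6.63 and 4.55 to 5.3 CPM, and the 6 red cell and platelet markers to 3.79 to 4.33 and 3.5 to 4.47 CPM, with Clec9a, Siglech, Pf4 and Ppbp at 0. Within the dendritic sum, Xcr1 went from a mean of 5.137 to 0.6312 CPM and Zbtb46 from 0.4573 to 4.112 CPM. For stromal and endothelial cells, Col3a1 and Cdh5 were at 0, and the sum of 52.3 to 57.0 CPM in Mock and 30.6 to 32.6 CPM in GC7 was mostly Pecam1, a gene that T cells also express. The part of these differences in the values given next was not tested. In bulk RNA, fewer cells of a type and less RNA per cell cannot be told apart.

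Relative to the other genes, with TMM factors, the mRNA level of 9 of the 10 genes was lower in GC7-treated cells, and of none higher. The decreases were between 0.38 (Pfn1) and 1.14 (Vim) on the log2 scale, and Myl6 alone did not pass the test. The median log2 fold change of the 10 genes was -0.59, beside 0.02 over all genes tested. Among all 11189 genes, 23.5% were lower and 23.0% were higher in GC7 at the same threshold, a false discovery rate (FDR) under 0.01 in edgeR's quasi-likelihood test. A decrease of more than 2-fold was called for 1 of the 10 genes (Vim), beside 5.31% of all genes, and an increase of more than 2-fold for none, beside 3.17%. For all 10 genes every GC7 library lay below every Mock library, which was the case for 27.5% of all genes. Together the 10 genes took 2.62% ± 0.159 of all counts in Mock and 1.73% ± 0.115 in GC7 (SD, n = 4 each).

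**Figure D1:**
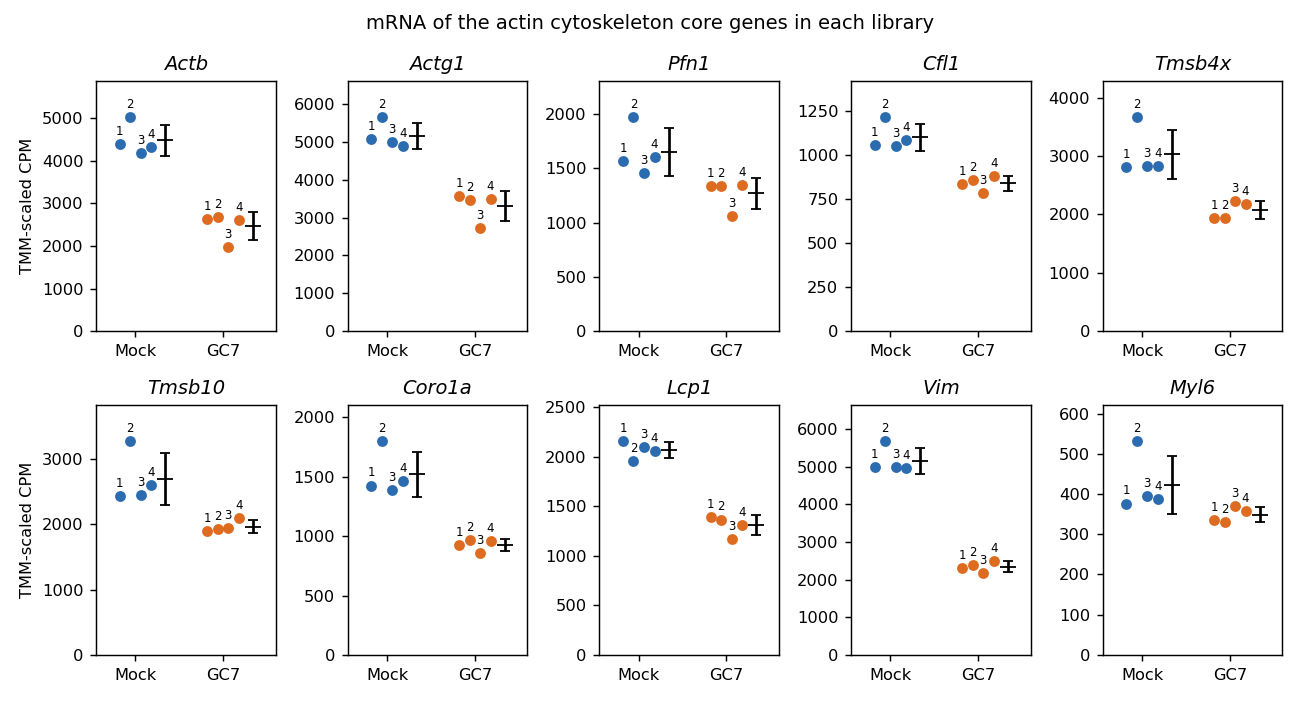
Level of each of the 10 genes in the 8 libraries, in CPM scaled with TMM factors (linear axes from 0). Numbered points are replicates, and the black mark and bars give the mean and SD of 4 libraries. In every panel all GC7 points lie below all Mock points, with Mock replicate 2 the highest Mock point in 9 panels and GC7 replicate 3 the lowest GC7 point in 7.

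Actb and Actg1 encode the β and γ cytoplasmic actins, the building blocks of the filaments in non-muscle cells. The products differ by a few residues at the amino terminus, and their coding sequences differ more. Over the 1128 coding bases, stop codon included, Actb differed from Actg1 at 128 positions (88.65% identity). Reads of Actg1 can also match Gm12715, a processed pseudogene (an intron-less copy) on chromosome 4 at 103563402-103564529, plus strand (GRCm38). Its sequence was 99.65% identical to the coding sequence of Actg1, with 4 differing bases, at coding positions 858, 861, 864 and 1002 counted from the A of the start codon, and 3 of the 4 were the base that Actb has there. These stretches show where the 3 genes can and cannot be separated: the start of the coding sequence, where Actb differs and the copy does not, and the stretch that holds 3 of the copy's 4 differences. They are written 5′ to 3′ on the coding strand, from the GENCODE transcripts on GRCm38, with capitals where a base differs from Actg1.
Actg1, coding bases 1 to 36, chromosome 11, minus strand: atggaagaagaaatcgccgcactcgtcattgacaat
Gm12715, coding bases 1 to 36, chromosome 4, plus strand: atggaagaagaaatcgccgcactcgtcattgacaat
Actb, coding bases 1 to 36, chromosome 5, minus strand: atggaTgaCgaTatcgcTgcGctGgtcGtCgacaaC
Actg1, coding bases 841 to 900: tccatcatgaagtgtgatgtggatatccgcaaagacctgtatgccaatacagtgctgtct
Gm12715, coding bases 841 to 900: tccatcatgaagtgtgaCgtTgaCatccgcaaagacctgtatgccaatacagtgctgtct
Actb, coding bases 841 to 900: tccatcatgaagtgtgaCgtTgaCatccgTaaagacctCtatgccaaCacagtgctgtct
In the first stretch Actb differed from Actg1 at 9 bases and Gm12715 at 0, and in the second Actb differed at 6 and Gm12715 at 3.

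Actb (chromosome 5, 142903115-142906754, minus strand, GRCm38) stood at 4378, 5012, 4180 and 4323 CPM in Mock replicates 1 to 4 and at 2631, 2682, 1983 and 2607 CPM in GC7 replicates 1 to 4. Mock replicate 2 was the highest and GC7 replicate 3 the lowest, and the lowest Mock library was well above the highest GC7 library. GC7 cells kept 55.3% of the Mock level, a log2 fold change of -0.85 ± 0.104 (SE, 95% confidence interval -1.08 to -0.63, edgeR's quasi-likelihood test, adjusted p = 2.1e-05). Of the pseudogenes and unnamed gene models that matched Actb, 5 had their longest match with Actb rather than Actg1, and these did not pass the filter on low values and had at most 6 counts in a library. The others, among them Gm12715 (243 bases at 90.1% identity with Actb), matched Actg1 over a longer stretch and were assigned to it. A transcript of the protein-coding gene Lrrc58 matched Actb over 1347 bases at 90.6% identity, and that gene had 811 to 1204 counts per library, against at least 35533 for Actb.

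Actg1 (chromosome 11, 120345690-120348542, minus strand) stood at 5078, 5645, 4987 and 4893 CPM in Mock and at 3563, 3475, 2727 and 3486 CPM in GC7. GC7 replicate 3 was again the lowest library. This gave a log2 fold change of -0.64 ± 0.0956 (SE, edgeR's quasi-likelihood test, adjusted p = 0.00011). Because of the copy the level of Actg1 is uncertain, and the fold change less so by the values that follow. Gm12715 drew 23507 to 31504 counts per library in Mock and 11656 to 19497 in GC7, which is 24.1% ± 0.818 and 23.6% ± 0.443 of the counts of Actg1 (SD, n = 4 each). Gm8399, a second Actg1 copy, drew 1.32% in both groups. The fold changes of both copies, -0.66 for Gm12715 and -0.64 for Gm8399, were close to that of Actg1, and Actg1 had the same fold change after the counts of all its copies were added to it. Per library, the count of Actg1 was 113% to 119% of the count of Actb in Mock and 130% to 138% in GC7, with no overlap between the groups. These percentages compare counts and not molecules, and the ratio itself was not tested. They leave out the counts of Gm12715, and the ratio would be higher in both groups if those reads came from Actg1.

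The remaining 4 actin genes, the muscle forms Acta1, Acta2, Actc1 and Actg2, were at or below 0.4677 CPM in every library and were not tested.

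Profilin 1 (Pfn1) hands actin monomers to growing filament ends. Pfn1 (chromosome 11, 70651850-70654644, minus strand) had 1568, 1970, 1461 and 1603 CPM in Mock and 1339, 1334, 1057 and 1349 CPM in GC7. The groups did not overlap, but Mock replicate 2 and GC7 replicate 3 stood apart on the outer sides of their groups. The log2 fold change was -0.38 ± 0.106 (SE, edgeR's quasi-likelihood test, adjusted p = 0.0086), the weakest call among the 9 genes. It did not pass after leaving out Mock replicate 1, 2 or 4 or any 1 of the 4 GC7 libraries (log2 fold change -0.44 to -0.29 over all 8 omissions), nor with library totals (-0.28, adjusted p = 0.0262). Without both Mock replicate 2 and GC7 replicate 3, an alternative chosen after the values were seen, it was -0.20 and passed (adjusted p = 0.000603, edgeR).

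The β-thymosins Tmsb4x and Tmsb10 bind single actin monomers and keep them from polymerising. Tmsb4x (X chromosome, 167207093-167209315, minus strand) had 2813, 3664, 2825 and 2833 CPM in Mock and 1937, 1937, 2223 and 2184 CPM in GC7. Mock replicate 2 lay far above the other 3 Mock libraries, which were nearly equal, and GC7 replicate 3 was here the highest of its group. The log2 fold change of Tmsb4x was -0.55 ± 0.0989 (SE, edgeR's quasi-likelihood test, adjusted p = 0.00045). No other annotated transcript matched Tmsb4x over 200 bases or more at 90% identity.

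Tmsb10 (chromosome 6, 72957347-72958748, minus strand) had 2437, 3276, 2449 and 2604 CPM in Mock and 1896, 1922, 1942 and 2104 CPM in GC7, again with Mock replicate 2 on top and without overlap. Its log2 fold change was -0.45 ± 0.0974 (SE, edgeR's quasi-likelihood test, adjusted p = 0.00163). Its near-identical copy Gm9844 drew 2.44% ± 0.27 of its counts in Mock and 2.83% ± 0.0435 in GC7, and had a log2 fold change of -0.24 that did not pass (adjusted p = 0.0962, edgeR).

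Cofilin 1 (Cfl1) severs filaments and so returns monomers to the pool. Cfl1 (chromosome 19, 5490455-5495201, plus strand) had 1054, 1212, 1050 and 1082 CPM in Mock and 833.9, 855.2, 783.6 and 878.6 CPM in GC7. The GC7 libraries lay close together, all below the lowest Mock library. Cfl1 changed by -0.39 ± 0.0707 on the log2 scale (SE, edgeR's quasi-likelihood test, adjusted p = 0.00047). Snx32, on the opposite strand, shares 468 exon bases with Cfl1 and had 197 to 353 counts per library, against at least 14042 for Cfl1. Gm6180, a copy of Cfl1, had at most 93 counts.

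Coronin 1A (Coro1a) is the coronin of blood cells, a filament-binding protein linked to Arp2/3 and cofilin, and its loss is known to impair the survival and migration of T cells. Coro1a (chromosome 7, 126699773-126707787, minus strand) had 1426, 1800, 1392 and 1464 CPM in Mock and 922.9, 963.9, 854.4 and 956.7 CPM in GC7. Mock replicate 2 was the highest, and a wide gap separated the groups. Its level changed by -0.72 ± 0.0887 on the log2 scale (SE, edgeR's quasi-likelihood test, adjusted p = 2.4e-05). Bola2, on the opposite strand, shares 26 exon bases with it and had 1248 to 2123 counts per library, against at least 15310 for Coro1a.

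Lcp1 encodes L-plastin, the leukocyte protein that ties filaments into bundles. Lcp1 (chromosome 14, 75131101-75230842, plus strand) had 2159, 1959, 2101 and 2062 CPM in Mock and 1393, 1367, 1173 and 1312 CPM in GC7. Unlike the other 9 genes, it was lowest among the Mock libraries in replicate 2. The log2 fold change was -0.66 ± 0.074 (SE, edgeR's quasi-likelihood test, adjusted p = 1.1e-05).

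Vim (chromosome 2, 13573927-13582826, plus strand) had 4985, 5683, 5002 and 4960 CPM in Mock and 2316, 2398, 2164 and 2499 CPM in GC7. The GC7 level was 45.5% of the Mock level, the lowest share among the 10 genes, and the groups were far apart. The log2 fold change was -1.14 ± 0.0789 (SE, 95% confidence interval -1.31 to -0.97, edgeR's quasi-likelihood test, adjusted p = 1.7e-07). No copy of Vim was found at the limits used.

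Myl6 encodes the essential light chain of non-muscle myosin II. Myl6 (chromosome 10, 128490860-128494145, minus strand) had 376.3, 531.5, 394.2 and 387.5 CPM in Mock and 335.1, 330.1, 371.0 and 358.1 CPM in GC7. All 4 GC7 libraries were below the lowest Mock library, yet the highest GC7 library and the lowest Mock library were nearly equal and Mock replicate 2 lay far above the rest. The log2 fold change of -0.28 ± 0.103 (SE, 95% confidence interval -0.50 to -0.05) did not pass (edgeR's quasi-likelihood test, adjusted p = 0.0345). Its adjusted p ranged from 0.00234 to 0.112 over the alternatives that did not scale to Actb, and it passed in 2 of the 17, with no filter on low values and without both Mock replicate 2 and GC7 replicate 3. Without those 2 libraries, a choice made after the values were seen, Myl6 was at -0.18 and 10 of the 10 genes were lower. Over all genes 2985 were then lower and 3049 higher, against 2635 and 2579 with all 8 libraries. The filter on low values was applied anew to the libraries left, so the genes tested need not be the same.

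Levels of different genes were compared as CPM per kilobase of the principal transcript. In Mock the order was Tmsb4x (3950 ± 547), Tmsb10 (3901 ± 575), Actg1 (2639 ± 173), Vim (2352 ± 160), Actb (2330 ± 192), Pfn1 (1917 ± 257), Coro1a (870.3 ± 108), Myl6 (635.1 ± 110), Lcp1 (539.0 ± 21.9) and Cfl1 (467.2 ± 32.3; mean CPM per kilobase ± SD, n = 4). Neighbours in this order overlapped in range, except that Tmsb10 was above Actg1, Pfn1 above Coro1a and Myl6 above Lcp1 in all libraries. In GC7 the order became Tmsb10 (2849 ± 136), Tmsb4x (2696 ± 201), Actg1 (1697 ± 201), Pfn1 (1475 ± 165), Actb (1289 ± 172), Vim (1069 ± 64.7), Coro1a (529.2 ± 28.6), Myl6 (524.2 ± 29.0), Cfl1 (355.9 ± 17.2) and Lcp1 (341.3 ± 25.6). There the neighbours without overlap were Tmsb4x and Actg1, Vim and Coro1a, and Myl6 and Cfl1. Among protein-coding genes ranked by this level, Tmsb4x went from rank 4 in Mock to rank 18 in GC7, Vim from 21 to 90 and Actb from 23 to 80, whereas Cfl1 moved only from 160 to 152. Over all annotated exon bases instead of the principal transcript, Myl6 fell to the last place in both groups, and the order of genes thus depends on the transcript that is assumed. The level of Actg1 leaves out the counts drawn by Gm12715, so its distance from its neighbours is uncertain too.

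Actb is itself a common scaling gene, also in the RT-qPCR of this study, and the values were therefore compared under several scalings of the libraries. With the trimmed mean of M values (TMM), which assumes that most genes do not differ, the median of all genes was at 0.02. With library totals the median of all genes moved to 0.11, 8 of the 10 genes stayed lower (not Pfn1 and Myl6), and the calls over all genes changed from 2635 lower and 2579 higher to 2056 lower and 3346 higher. Scaling to equal Actb shifts every gene by nearly the same amount by construction. With it the median of all genes was at 0.88, and 373 of the other 11188 genes were lower and 9183 higher. On that scale Vim had a log2 fold change of -0.27 (adjusted p = 0.0201, edgeR), the other 8 genes had values of 0.15 (Coro1a) to 0.61 (Myl6), and Pfn1, Cfl1, Tmsb10 and Myl6 passed as higher. Relative to the median of all genes, however, the values with Actb scaling were -1.15 for Vim, -0.73 for Coro1a, -0.69 for Lcp1, -0.67 for Actg1, -0.55 for Tmsb4x, -0.46 for Tmsb10, -0.41 for Cfl1, -0.40 for Pfn1 and -0.27 for Myl6 with the same order as with TMM factors. Counts of this kind do not give the amount of mRNA per cell.

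**Figure D2:**
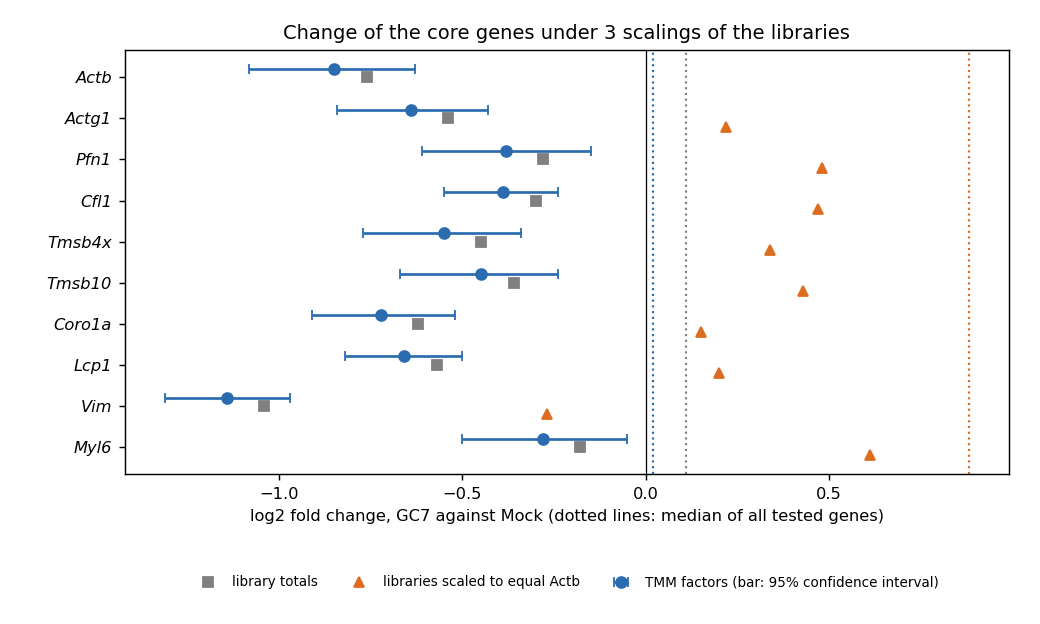
Log2 fold change of the 10 genes (GC7 against Mock) with TMM factors (circles, bars are 95% confidence intervals), with library totals (squares) and with libraries scaled to equal Actb (triangles, no value for Actb). Dotted lines mark the median of all genes tested under the same scaling, at 0.02, 0.11 and 0.88, and each gene lies to the left of the median of its own scaling.

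Other genes that often serve as references moved in both directions. Of 12 common reference genes, Actb included, 6 were lower and 3 higher with TMM factors. Gapdh and Pgk1, enzymes of glycolysis, were lower by 0.84 and 1.31 on the log2 scale (adjusted p = 2.75e-06 and 4.56e-08, edgeR), that is by about as much as Actb or more. Ywhaz, Sdha and Ppia were lower by 0.43, 0.36 and 0.28. B2m, a subunit of MHC class I, the ribosomal protein gene Rplp0 and the TATA-binding protein gene Tbp were higher by 0.34, 0.53 and 0.26. The remaining 3 did not pass, with values of -0.12 for Hprt and 0.05 for both Gusb and Polr2a, and Gapdh was the closest to Actb.

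Beyond the 10 genes, 161 genes were listed by their role in the cytoskeleton, of which 121 passed the filter. Among these, 61 were lower in GC7, 11 higher and 49 did not pass, with a median log2 fold change of -0.28. With library totals 48 were lower and 17 higher, beside 2056 lower and 3346 higher of all genes. Without both Mock replicate 2 and GC7 replicate 3, with the filter applied anew, the counts were 66 lower and 17 higher, beside 2985 and 3049 of all genes. The lists were written by role, with earlier results of these data known. The counts below leave out the 10 core genes and are to be read beside the 23.5% lower and 23.0% higher among all genes.

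Of 4 other monomer-binding genes tested, 3 were lower and 1 higher. Twf2 (twinfilin 2), which binds monomers and caps filament ends, was at 94.39 to 127.0 CPM in Mock and 46.37 to 47.95 CPM in GC7, a decrease by 1.13 on the log2 scale (adjusted p = 7.3e-07, edgeR), and Pfn2 decreased by 0.46. Of 20 severing and turnover genes, 11 were lower and 3 higher. Gsn, which encodes the severing protein gelsolin, had 107.7 to 131.3 CPM in Mock and 18.19 to 22.97 CPM in GC7, a decrease by 2.46 (adjusted p = 5.7e-10, edgeR), and Coro1b, a coronin of the cell's leading edge, decreased by 0.92. Cfl2 rose by 1.02, and it is described with its paralogs further on.

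The 10 subunit genes of the Arp2/3 complex, which starts filament branches, were all tested, and 7 were lower and 2 higher. Arpc1b fell by 0.71 and Arpc2 by 0.58, and Actr3b rose by 1.14. Of the 16 genes of the WASP and WAVE group, which activate that complex, 6 were lower and 1 higher with a median of 0.0. Wipf1, the partner that stabilises WASP, fell by 0.68 and Cyfip2 by 0.51, whereas Nckap1 rose by 0.67. Formins and Ena/VASP proteins elongate unbranched filaments. Of their 11 genes, 4 were lower, with Vasp at -0.57 and Fmnl1 at -0.55, and 2 higher, with Diaph2 at 0.76. Of 8 capping genes 4 were lower and none higher, with Capg at -1.09, Add1 at -0.72 and Tmod3 at -0.37.

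Among 17 bundling and crosslinking genes other than Lcp1, 11 were lower and 1 higher. Fscn1, which encodes the bundling protein fascin, was low in all libraries and had 8.218 to 10.5 CPM in Mock and 0.558 to 0.8763 CPM in GC7, a decrease by 3.74 on the log2 scale (adjusted p = 3.6e-09, edgeR). Tagln2, a filament-stabilising protein of T cells, fell by 0.96 from a mean of 720.1 to 369.2 CPM, and Flna (filamin A) fell by 0.91. Of the 4 tested genes listed with Vim under intermediate filaments, 3 were lower. Plec encodes a linker of intermediate filaments to actin and stood at -1.04, and the other 3 encode nuclear lamins, with Lmna at -0.50.

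Of the 12 myosin II and tropomyosin genes beside Myl6, 2 were lower, Tpm4 by 0.45 and Tpm3 by 0.32, and none higher, a share of lower calls near that of all genes. The paralog Myl6b, at 4.369 to 5.867 CPM, had a log2 fold change of -0.24 that did not pass (adjusted p = 0.0998, edgeR). Of 8 genes of the MRTF and SRF group 4 were lower and none higher. The 4 were the co-factor genes Fhl2 (-0.92) and Fhl3 (-0.56), Elk3, a partner of SRF (-0.69), and Srf itself (-0.25, adjusted p = 0.0032, edgeR). The MRTF genes Mrtfa (-0.20) and Mrtfb (-0.15) did not pass. The 11 tubulin genes are part of another filament system, and 6 of them were lower and 1 higher, with Tubb2b at -0.75, Tuba4a at -0.72 and Tubb6 at -0.64.

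**Figure D3:**
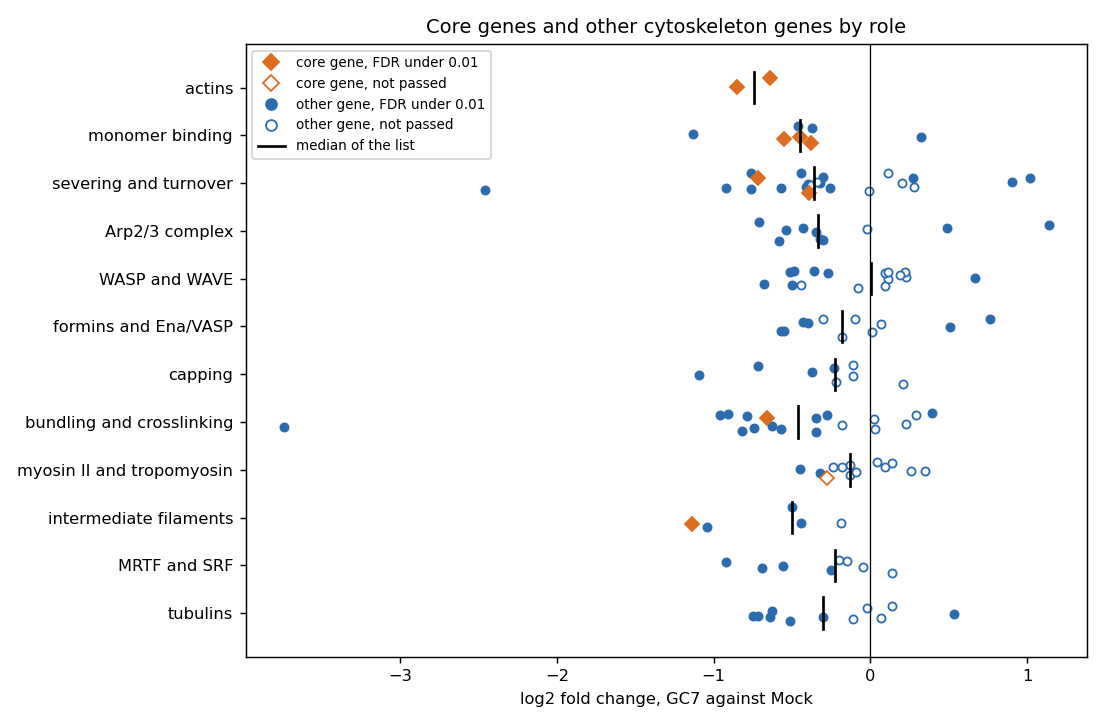
Log2 fold change (GC7 against Mock) of every tested gene in 12 lists of cytoskeleton roles, with the 10 core genes as diamonds, other genes as circles, filled symbols for an FDR under 0.01 and a black line at the median of each list. The core genes lie between -1.14 and -0.28, and Fscn1 (-3.74) and Gsn (-2.46) lie farthest to the left.

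In several families the abundant gene was lower while a scarcer relative was higher. These pairs were chosen after their values were seen and are given without a test of the pair. Dstn (destrin), which like cofilin takes filaments apart, had 28.31 to 34.12 CPM in Mock and 54.82 to 71.93 CPM in GC7 and rose by 0.90 on the log2 scale (adjusted p = 7.0e-06, edgeR). Cfl2, cofilin 2, had 11.56 to 13.64 CPM in Mock and 24.78 to 27.73 CPM in GC7 (adjusted p = 5.0e-07, edgeR). As a share of its sum with Cfl1, Cfl2 went from 0.945% to 1.28% in Mock to 2.8% to 3.42% in GC7, and Dstn from 2.55% to 3.15% to 6.08% to 8.41%, so that Cfl1 remained the main gene by far. Likewise, Actr3 was lower (-0.43) and Actr3b higher, Arpc5 lower (-0.30) and Arpc5l higher (0.49), Twf2 lower and Twf1 higher (0.32), Actn4 lower (-0.28) and Actn1 higher (0.39), and Nckap1l lower (-0.27) and Nckap1 higher. Twf1 made up 15.6% to 23.9% of the pair in Mock and 41.0% to 42.5% in GC7. Other relatives did not show this split. Pfn2 was lower as was Pfn1, and Coro1b (-0.92), Coro1c (-0.32) and Coro7 (-0.44) were lower as was Coro1a. Coro2a, at 247.2 to 282.2 CPM in Mock and 239.6 to 319.5 CPM in GC7, did not pass (0.11, adjusted p = 0.294, edgeR). The share of Pfn2 beside Pfn1 overlapped between the groups (0.581% to 0.901% and 0.591% to 1.03%), as did that of Myl6b beside Myl6.

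**Figure D4:**
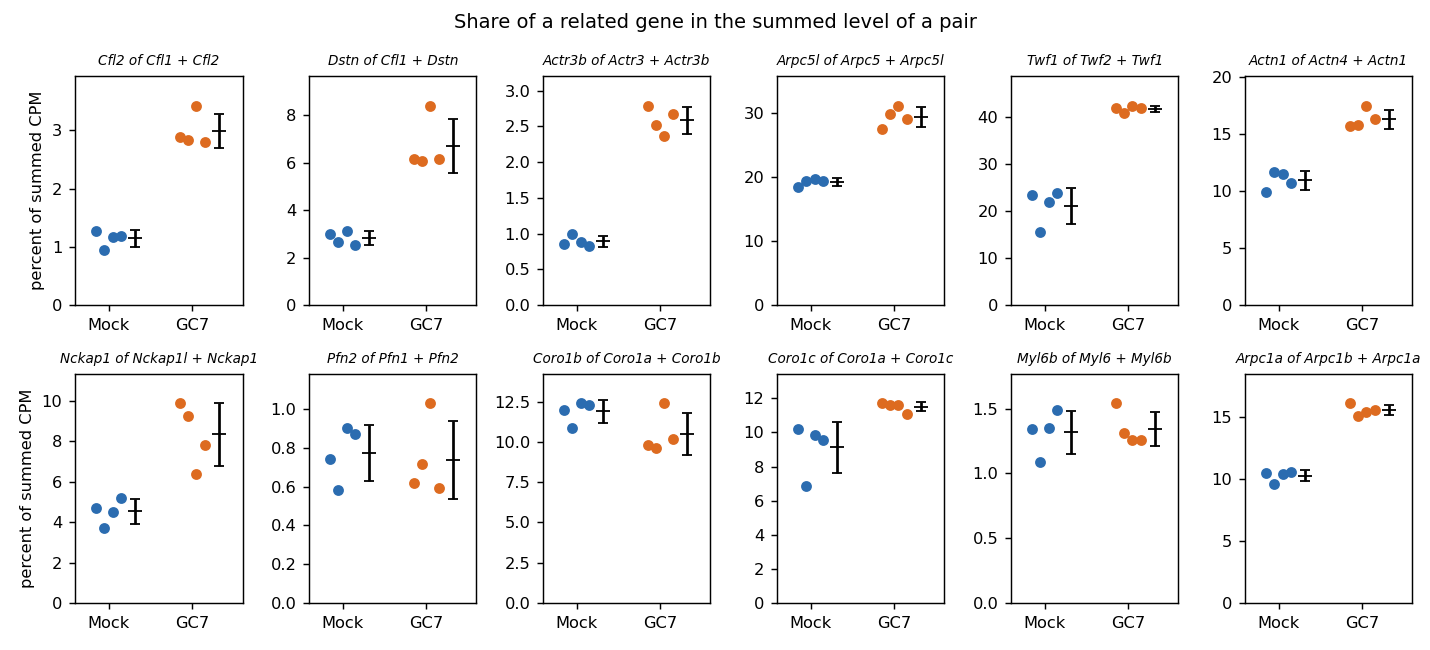
Share of a related gene in the summed CPM of a pair, in percent (linear axes from 0, not corrected for length), for 12 pairs. Points are libraries, and black marks and bars are mean and SD of 4 libraries. The share is higher in every GC7 library than in every Mock library for Cfl2, Dstn, Actr3b, Arpc5l, Twf1, Actn1, Nckap1, Coro1c and Arpc1a, and the groups overlap for Pfn2, Coro1b and Myl6b.

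Promoter windows of 250 bases before to 50 bases after a start site (RefSeq, build GRCm38.p6) were at hand for the 9 genes other than Actb, in 14 windows, and were searched for the CArG box, the site that SRF binds. Its pattern is its own reverse complement, so both strands were covered. It occurred in 2 of the 14 windows, 1 of Actg1 and 1 of Myl6, beside 535 of all 32851 windows (1.63%). The stretch of the Actg1 promoter is shown because it holds the only box among the windows of the 8 genes called lower that were searched, 90 to 81 bases before the start site, with the box in capitals.
Actg1 promoter, chr11:120348546-120348615, minus strand, GRCm38.p6: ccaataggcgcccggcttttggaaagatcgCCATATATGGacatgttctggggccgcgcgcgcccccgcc
The box of Myl6 lay 50 to 41 bases before the start site of its window. The other 12 windows held no such box, which says only that these letters are not in those windows.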

How the data were processed

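Raw counts per Ensembl gene were deposited by the authors, 1 table per library, neither normalised nor pooled. Per the methods, they trimmed paired-end reads (Cutadapt 2.3), aligned them to GRCm38 (STAR 2.7.1a) and counted them with featureCounts of Rsubread 1.6.4. The strand setting and the treatment of reads with several matches are not given in the sources used here, so genes that overlap on opposite strands or have near-identical copies are uncertain. Groups came from the library titles. The methods call the 4 libraries of a group biological replicates and do not say whether they came from separate mice or cultures, and p-values measure the spread between these libraries.

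Genes above 3 CPM in 4 or more of the 8 libraries were tested with edgeR 4.0.16 (R 4.3.3): TMM factors, the group as the only term, the quasi-likelihood test and Benjamini-Hochberg adjustment over 11189 genes, with calls at an FDR under 0.01. The 10 genes and all lists were chosen with earlier results of these data known. Named are the 10 genes, their tested copies and paralogs, up to 3 genes of each list with the largest change among those called, and the reference genes, and any other gene was named after its values were seen. Copies were pseudogenes or unnamed gene models matching a core gene's transcripts over at least 200 bases at 90% identity (BLAST 2.17.0), each assigned to the core gene with the largest product of match length and identity, and gene models came from GENCODE for the same Ensembl release, where all 55536 IDs matched. The test was run on simulated data with 200 of 11189 genes changed, equally up and down, and with no library made to stand apart. There, 40 of 50 genes with a log2 change of -0.5, all 50 with -1.0 and 2 of 10989 unchanged genes were called. In the real data far more genes were called and Mock replicate 2 and GC7 replicate 3 often stood apart, so these rates need not hold. Alternatives were RLE factors, library totals, TMM without mitochondrially encoded genes, equal Actb, DESeq2 1.42.0, no filter, filterByExpr, copies summed, a replicate block, each library left out, and Mock replicate 2 and GC7 replicate 3 left out together (chosen after seeing the data). Some listed genes are not reported here.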

Additional observations from a re-analysis of the deposited data

Results flagged for a closer look

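A library was set apart by Dixon's ratio, the gap between the outermost library and its nearest neighbour over the range of the 4 libraries of a group, at the 95% level. Of 128 groups of 4 values examined, 26 passed, where chance gives about 1 in 20, and the values share libraries. Mock replicate 2 accounted for 15 of them, GC7 replicate 3 for 9, and Mock replicate 3 and GC7 replicate 4 for 1 each. Among the 20 groups of the core genes, 6 passed. GC7 replicate 3 was the low library for Actb (0.894), Actg1 (0.895) and Pfn1 (0.948), and Mock replicate 2 the high library for Tmsb4x (0.976), Vim (0.941) and Myl6 (0.885). The summed share of the 10 genes was set apart in both libraries (0.91 for Mock replicate 2, high, and 0.847 for GC7 replicate 3, low).

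In other cytoskeleton genes, Mock replicate 2 was the high library for Twf2 (0.927), Arpc1b (0.934), Arpc2 (0.905), Capg (0.94), Tagln2 (0.918) and Fhl3 (0.911), and for the Myl6 copy Gm5526 (0.855). GC7 replicate 3 was the low library for Elk3 (0.867) and Tuba4a (0.978) and the high library for Cfl2 (0.834). Among reference genes, Mock replicate 2 was high for Gapdh (0.883), Ppia (0.946) and Rplp0 (0.862), and GC7 replicate 3 was low for Gapdh (0.852) and Pgk1 (0.931). The TMM factor of Mock replicate 2 was the lowest of its group (0.86). Of the remaining flags, Fmnl1 was low in Mock replicate 3 (0.872) and the Tmsb10 copy Gm9844 high in GC7 replicate 4 (0.878).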

How the results depend on the processing

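Over 17 alternatives that did not scale to Actb, 160 of 170 comparisons of the core genes kept their direction and their side of the threshold, and none turned. The exceptions were Pfn1, which lost its call with library totals (-0.28) and in 7 of the 8 omissions of 1 library (-0.41 to -0.29, beside -0.44 without Mock replicate 3, still called), and Myl6, which passed with no filter (-0.28) and without both Mock replicate 2 and GC7 replicate 3 (-0.18), the latter also moving Pfn1 to -0.20, still called. Without single libraries Myl6 ranged from -0.34 (Mock replicate 1) to -0.15 (Mock replicate 2), not called. Scaling to equal Actb subtracts the change of Actb from every gene by construction. It turned Actg1 (0.22), Pfn1 (0.48), Cfl1 (0.47), Tmsb4x (0.34), Tmsb10 (0.43), Coro1a (0.15), Lcp1 (0.20) and Myl6 (0.61), left Vim at -0.27 without a call, and gave 0 lower and 4 higher core genes. Among reference genes it changed the sign of Gapdh, Hprt (0.75), Ppia (0.60), Ywhaz (0.42) and Sdha (0.50). Gapdh was then near 0 and not called (0.03, adjusted p = 0.778, edgeR), and Hprt had not been called with TMM factors. Of the listed cytoskeleton genes 11 were called higher, against 17 each with library totals, with no filter and without both libraries. Over all genes 2579 were called higher, against 3346, 3335 and 3049 in these alternatives, and the cause was not tested. Whether the replicate numbers pair the libraries is not known. Same-numbered deviations correlated at 0.2719, -0.1158, 0.2025 and -0.1825, with a mean of 0.044 beside -0.020 for different numbers. Of the 4 Mock libraries, 2 correlated best with their own number. These values are too few to decide the question. A replicate block left 9 core genes lower (Actb at -0.86) and changed no call among them.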
